A study of Homo sapiens with 6 samples.

Results

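The transcripts of 43 collagen genes were followed across 6 Affymetrix HG-U133 Plus 2.0 arrays, out of 19775 genes read by at least 1 probe set that names a single gene. A gene was counted as a collagen gene when its platform symbol is COL, a number, A and a number, and its brightest probe set over the 6 arrays was used. The arrays hold RNA of cells labelled HepG2, a human line from a liver tumour. The cells were transfected with a lipid reagent and harvested 48 h later, 3 arrays with a negative control siRNA and 3 with an siRNA against RNF43. RNF43 is a membrane ubiquitin ligase that dampens Wnt signalling by marking its Frizzled receptors for removal. The arrays of a group are called biological replicates, but the labels do not tell whether each had its own culture. A p-value below therefore sets a difference against the scatter among these 6 arrays, and that scatter may be technical.

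By their labels the groups differ in the small RNA they received, so the antisense strand of each is shown here, 5′ to 3′, with its seed (bases 2 to 8) in capitals.
RNF43 siRNA: aUAAUAGCuuucuguucugtt
Negative control siRNA: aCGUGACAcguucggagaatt

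Collagens are secreted or membrane proteins whose chains wind into a right-handed helix built on glycine repeats. Fibrillar collagens form the ropes of connective tissue, network collagens the sheets of basement membranes, fibril-associated collagens decorate the ropes, and transmembrane collagens span the cell surface. Each chain is hydroxylated and folded in the endoplasmic reticulum, secreted, trimmed and cross-linked outside the cell, and in liver most fibrillar collagen is known to come from stellate cells and fibroblasts.

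The labels were checked against 2 measurements. RNF43, read by 1 probe set only, was 1.56-fold higher, not lower, on the arrays labelled RNF43 siRNA (log2 difference 0.64, SE 0.14, limma adjusted p = 0.0098). The exact two-sided permutation p was 0.1, the smallest that 3 against 3 arrays allow. The limma call was lost without both arrays numbered 3 (0.48, adjusted p = 0.0537, alternatives 0.00585 to 0.0537). The hepatocyte markers went against the cell label. Of 10 matched markers, 9 lay below the filter on dim signals (a mean log2 signal of 5.83, the midpoint of all probe sets), among them the plasma protein genes ALB at a mean log2 signal of 4.21 and APOA1 at 5.18. AFP alone passed (log2 difference -0.60, limma adjusted p = 0.0877). Summed over the 10 genes on the linear scale, the signal was 365 to 499 on the control arrays and 265 to 350 on the others. Of 18 fibroblast and stellate cell markers other than collagens, 12 passed the filter, where 59.9% of all measured genes did. The brightest were LUM at 13.36 ± 0.06 and VIM at 13.97 ± 0.07 (log2 signal, SD, n = 3) on the control arrays. The dimmest that passed were FBLN2 and RGS5, at mean log2 signals of 5.84 and 6.14. PDGFRA, PDGFRB, THY1, POSTN, LRAT and GFAP, which mark fibroblasts or stellate cells too, were dim. The cells are therefore called by their label only, and each direction below compares arrays by the siRNA on their label. Were the 2 labels exchanged, every sign would turn.

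Of the 43 collagen genes, 21 (48.8%) passed the filter and were tested, against 59.9% of all measured genes. Of these 21, 6 fell, 2 rose and 13 did not pass (limma, Benjamini-Hochberg adjusted p under 0.05 over 11853 genes). The share that fell was 28.6%, where 11.1% of all tested genes fell, and the share that rose was 9.52%, where 11.5% of all tested genes rose. In both directions together 38.1% of collagen genes were called, against 22.6% of all genes. The median log2 difference was -0.13 over the tested collagen genes and -0.003 over all tested genes. The 6 that fell were COL3A1, COL5A1, COL5A3, COL4A1, COL7A1 and COL5A2, and the 2 that rose were COL4A4 and COL12A1. For 10 of the 21 genes (47.6%) no value of one group lay within the other, 2 higher and 8 lower, against 38.9% of all tested genes (19.1% higher and 19.8% lower). Without both arrays numbered 3, a setting chosen after the data were seen, 7 genes were called, 5 lower and 2 higher. Without control replicate 1 the count was 5, of which 4 fell and 1 rose.

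**Figure D1:**
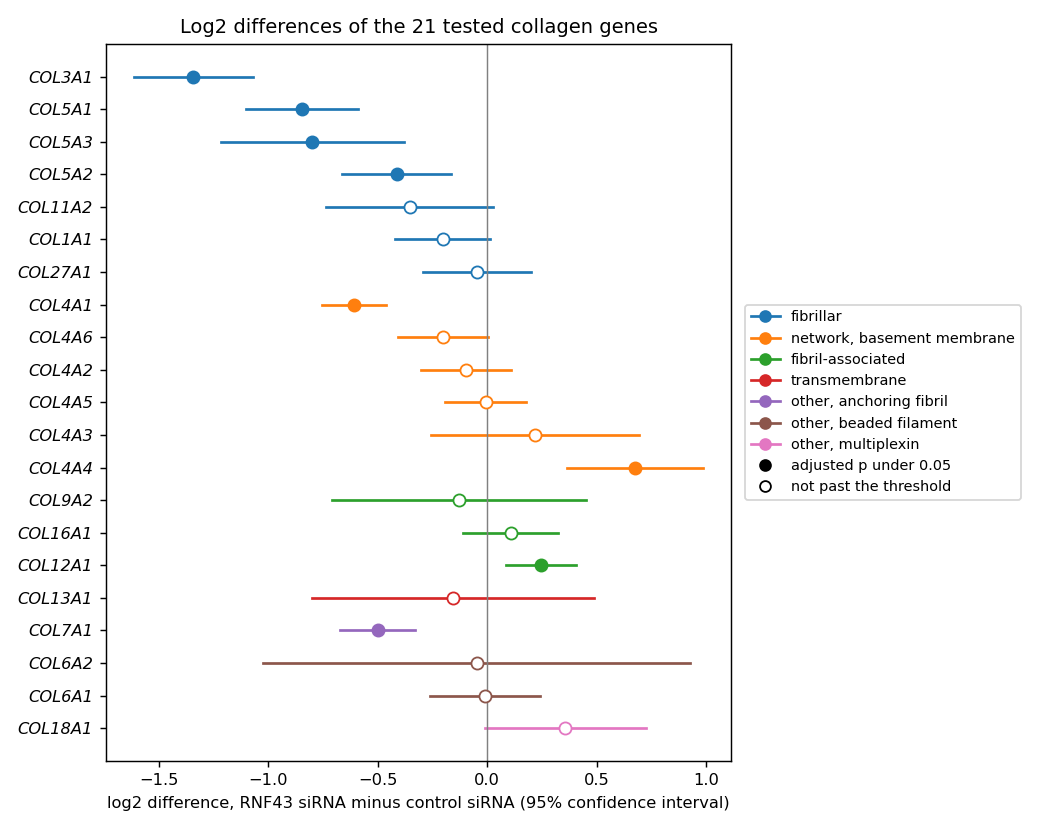
Log2 difference of each of the 21 tested collagen genes (RNF43 siRNA minus control siRNA, horizontal axis), ordered and coloured by structural class, with 95% confidence intervals; filled points have adjusted p under 0.05. All 7 fibrillar points lie left of 0, from COL3A1 at -1.34 to COL27A1 at -0.05, while COL4A4 at 0.68 and COL12A1 at 0.25 are the filled points to the right of 0.

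Sequences upstream of 5 of the called genes are shown so that the start regions can be compared. They come from RefSeq (GRCh38.p14), which gave a promoter entry for 17 of the 21 tested genes and 6 of the 8 called ones. Each is printed 5′ to 3′ on the gene's strand, 250 bases up to the start of transcription, and capitals mark matches, on either strand, to CCAAT (the CCAAT box), GGGCGG (the GC box) or TATAAA (the TATA box). The first sequence is instead the whole stretch of 126 bases that separates the starts of COL4A1 and COL4A2, which are transcribed away from each other, printed on the plus strand.
COL4A1-COL4A2 stretch, chr13:110307158-110307283, plus strand: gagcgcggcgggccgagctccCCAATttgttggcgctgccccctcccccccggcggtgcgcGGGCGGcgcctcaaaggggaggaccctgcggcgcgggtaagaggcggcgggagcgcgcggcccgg
COL5A1 (fell), chr9:134641553-134641802, plus strand: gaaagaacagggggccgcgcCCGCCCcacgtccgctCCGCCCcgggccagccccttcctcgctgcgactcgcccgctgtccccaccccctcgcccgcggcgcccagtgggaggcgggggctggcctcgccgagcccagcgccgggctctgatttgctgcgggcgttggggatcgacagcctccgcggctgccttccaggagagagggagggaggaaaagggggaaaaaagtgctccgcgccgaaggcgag
COL5A3 (fell), chr19:10010505-10010754, minus strand: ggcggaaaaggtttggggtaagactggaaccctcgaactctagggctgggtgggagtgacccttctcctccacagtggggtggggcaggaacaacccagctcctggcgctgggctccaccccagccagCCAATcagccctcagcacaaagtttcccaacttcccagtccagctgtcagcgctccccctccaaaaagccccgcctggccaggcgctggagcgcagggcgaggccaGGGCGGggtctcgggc
COL7A1 (fell), chr3:48595330-48595579, minus strand: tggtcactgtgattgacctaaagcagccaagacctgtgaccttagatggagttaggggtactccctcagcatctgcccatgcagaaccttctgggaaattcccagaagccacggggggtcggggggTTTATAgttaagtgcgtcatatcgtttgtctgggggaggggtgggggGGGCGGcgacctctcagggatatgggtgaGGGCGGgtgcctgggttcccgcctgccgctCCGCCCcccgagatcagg
COL12A1 (rose), chr6:75206054-75206303, minus strand: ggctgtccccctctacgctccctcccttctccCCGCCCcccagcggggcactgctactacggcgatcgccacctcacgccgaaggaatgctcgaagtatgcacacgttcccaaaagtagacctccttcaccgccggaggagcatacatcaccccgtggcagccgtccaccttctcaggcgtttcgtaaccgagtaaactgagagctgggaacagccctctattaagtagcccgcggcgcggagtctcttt
The stretch between COL4A1 and COL4A2 is 80.2% G and C and holds 1 CCAAT and 1 GGGCGG match. COL5A1 holds 2 GGGCGG matches and COL7A1 holds 3, with a TATAAA match in COL7A1 only among the sequences printed. COL5A3 holds 1 CCAAT and 1 GGGCGG match, and COL12A1, which rose, holds 1 GGGCGG match. Of the 17 tested collagen genes with an entry, the first entry held GGGCGG in 12, CCAAT in 5 and TATAAA in 3. These are not independent counts. The 250 bases overlap for COL4A1 with COL4A2, COL4A3 with COL4A4 and COL4A5 with COL4A6, so a match can count for both genes. Over all 35116 promoter entries cut to the same 250 bases, GGGCGG was found in 42.6%, CCAAT in 32.0% and TATAAA in 10.7%. Some genes have several of these entries. COL4A4, which rose, is not printed because the start in its entry lies inside the annotated gene; that entry held 0 matches to any of the 3 motifs. A match describes the letters and is no binding site.

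Of the 11 fibrillar collagen genes, 7 were tested, of which 4 fell and 0 rose on the arrays labelled RNF43 siRNA. Over all tested genes 11.1% fell and 11.5% rose. The median log2 difference over the 7 was -0.41. The genes that fell encode type III collagen and all 3 measured chains of type V collagen, which sits inside type I fibrils and limits their width. The main fibrillar chain gene COL1A1 did not pass.

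COL3A1, the single chain of type III collagen of skin, vessels and scars, had the largest difference of the tested collagen genes. Its log2 signal was 9.11, 8.97 and 9.25 on the control arrays and 7.86, 7.66 and 7.80 on the RNF43 siRNA arrays, so the highest of the latter stayed a full unit below the lowest control. COL3A1 fell 2.54-fold (95% confidence interval 2.10 to 3.06, SE of the log2 difference 0.12, limma adjusted p = 4.94e-05). All 3 COL3A1 probe sets above the filter fell, with log2 differences of -1.34 to -1.08. Taken one probe set at a time, 8.65% of 22660 probe sets fell and 9.01% rose. The COL3A1 names all end in _s_at or _x_at, which Affymetrix uses for probes shared between transcripts, and the 2 other COL3A1 probe sets were dim.

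COL5A1, the chain found in every common form of type V collagen, read 12.74, 12.91 and 12.99 on the control arrays and 12.18, 12.17 and 11.75 on the RNF43 siRNA arrays. The groups were apart, and RNF43 siRNA replicate 3 was the lowest. The gene fell 1.80-fold (log2 difference -0.84, 95% confidence interval -1.10 to -0.59, SE 0.12, limma adjusted p = 6.32e-04), and its 3 probe sets fell with log2 differences of -1.11 to -0.79. COL5A2, its usual partner chain, read 8.73, 8.57 and 8.76 against 8.29, 8.20 and 8.32. These values do not overlap either, and COL5A2 fell 1.33-fold (1.12 to 1.58, SE 0.11, limma adjusted p = 0.0232). The COL5A2 call was lost in 6 of 18 alternatives, among them leaving out control replicate 1 or 3 or RNF43 siRNA replicate 1 or 2 (adjusted p 0.0135 to 0.0906 over all), and the second COL5A2 probe set did not pass.

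COL5A3, the third type V chain, read 7.53, 7.33 and 7.45 on the control arrays and 6.52, 6.80 and 6.60 on the RNF43 siRNA arrays. Every RNF43 siRNA value lay below every control value. It fell 1.74-fold (95% confidence interval 1.30 to 2.32, SE 0.19 on the log2 scale, limma adjusted p = 0.0122), on the only COL5A3 probe set above the filter, whose name ends in _s_at. The other was dim, with overlapping groups and a log2 difference of -0.39. The call was lost without control replicate 1 and with the mean of both probe sets (adjusted p 0.00563 to 0.134 over all alternatives that tested it). COL5A3 was not tested without probe sets ending in _x_at or _s_at, or with only the upper 30% of probe sets.

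COL1A1, which makes most of type I collagen, read 10.61, 10.73 and 10.48 on the control arrays and 10.39, 10.56 and 10.27 on the RNF43 siRNA arrays. The groups overlapped, with a log2 difference of -0.20 (95% confidence interval -0.42 to 0.01, limma adjusted p = 0.172). Its partner COL1A2 was dim, with a mean log2 signal of 5.01 and single values from 2.35 to 6.11. COL11A2, a cartilage fibril chain, had a log2 difference of -0.35 (-0.74 to 0.03, limma adjusted p = 0.174) although its groups did not overlap. COL27A1, a fibrillar collagen of cartilage, had one of -0.05 (-0.29 to 0.20, limma adjusted p = 0.814). Its 3 probe sets above the filter ranged from -0.44 to -0.05, with 0 called. The mean over all 5 COL27A1 probe sets differed by -0.48 (limma adjusted p = 0.284). The other dim fibrillar genes were COL2A1, COL11A1 and COL24A1.

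**Figure D2:**
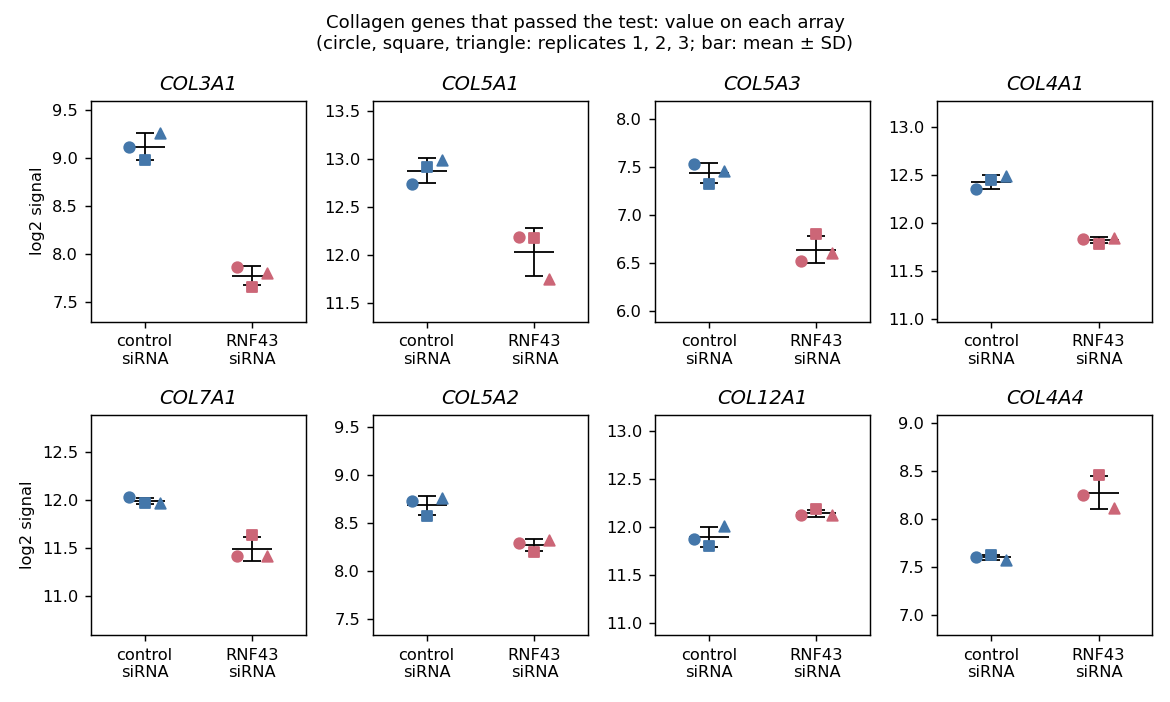
Log2 signal (vertical axes, each 2.3 units high) on every array for the 8 collagen genes with adjusted p under 0.05; circles, squares and triangles are replicates 1, 2 and 3 and bars show the mean ± SD of 3 arrays. In each panel the points of one group lie apart from those of the other, with the widest gap for COL3A1 and the narrowest for COL12A1.

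Network collagens of the basement membrane were all bright enough to test. Of the 6 type IV genes COL4A1 fell, COL4A4 rose and 4 did not pass, where 22.6% of all tested genes were called, and the median log2 difference was -0.05. In the genome these genes stand in head-to-head pairs, COL4A1 with COL4A2, COL4A3 with COL4A4 and COL4A5 with COL4A6, and each pair shares the sequence between its starts. COL4A1 and COL4A2 make the chains of the common type IV network, and the other 4 those of specialised membranes such as that of the kidney glomerulus.

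COL4A1 read 12.35, 12.44 and 12.48 on the control arrays and 11.83, 11.78 and 11.84 on the RNF43 siRNA arrays. The spread within each group was small beside the gap between them. COL4A1 fell 1.53-fold (95% confidence interval 1.38 to 1.69, SE 0.07 on the log2 scale, limma adjusted p = 1.32e-04), and both of its probe sets fell. COL4A2, whose start faces it across the 126 bases printed above, read 11.99, 12.05 and 11.91 against 11.96, 12.02 and 11.67. Its groups overlapped, and the log2 difference was -0.10 (95% confidence interval -0.30 to 0.11, limma adjusted p = 0.5). The log2 ratio of COL4A1 to COL4A2 within an array was lower by 0.51 on average on the RNF43 siRNA arrays. It was lower on all 3 of them than on any control array (SD 0.12 and 0.21, exact two-sided permutation p = 0.1, the smallest possible, 0.133 adjusted over 4 chain pairs). Every pair was followed because it holds a called chain, so these ratios are no separate support for the calls. The pair of COL4A5 and COL4A6, with no called chain, was left out.

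COL4A4 read 7.60, 7.62 and 7.57 on the control arrays and 8.25, 8.46 and 8.11 on the RNF43 siRNA arrays. All RNF43 siRNA values were higher than all controls. COL4A4 rose 1.60-fold (95% confidence interval 1.29 to 1.98, SE 0.14 on the log2 scale, limma adjusted p = 0.00638). A dimmer COL4A4 probe set did not pass, and the mean over its 3 probe sets differed by 0.16 (log2) in place of 0.68 (adjusted p = 0.763, alternatives 0.00205 to 0.763). Its neighbour COL4A3 read 6.81, 6.44 and 6.65 against 6.90, 6.89 and 6.76. These overlap, with a log2 difference of 0.22 (-0.26 to 0.69, limma adjusted p = 0.517). The within-array ratio of COL4A4 to COL4A3 changed by 0.46 (exact permutation p = 0.1, 0.133 adjusted). COL4A5 and COL4A6 did not pass, at log2 differences of -0.01 (-0.19 to 0.18) and -0.20 (-0.41 to 0.002).

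The same ratio was taken for the type V chains. The COL5A1 to COL5A2 ratio changed by -0.43 (exact permutation p = 0.1, 0.133 adjusted) and the COL5A1 to COL5A3 ratio by -0.05 (exact permutation p = 0.9). The short-chain network genes COL8A1, COL8A2 and COL10A1 were all dim.

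**Figure D3:**
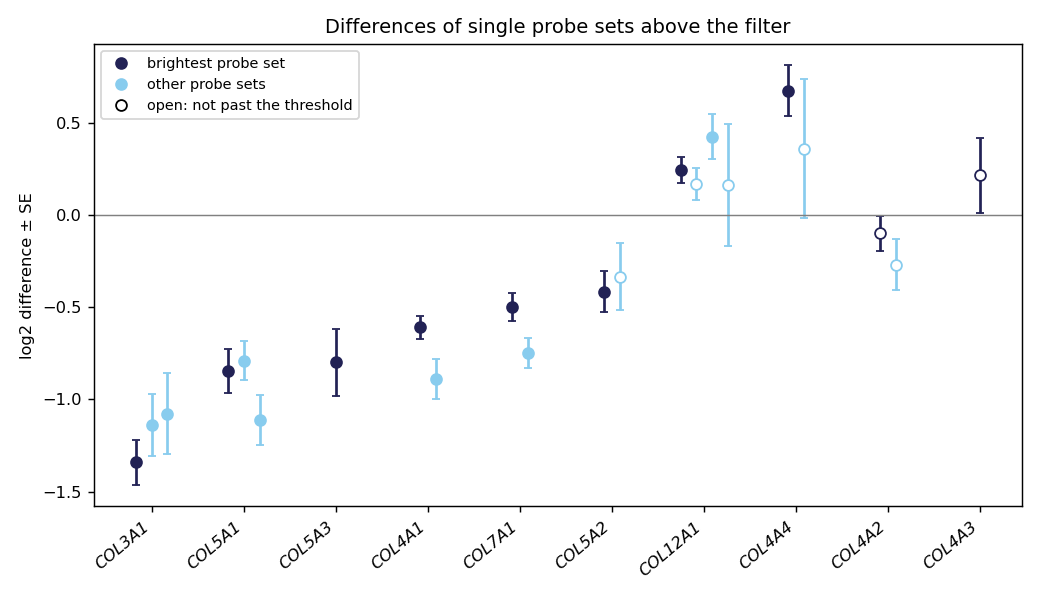
Log2 difference ± SE (vertical axis) of every probe set above the filter for the 8 called genes and for COL4A2 and COL4A3; dark points are the brightest probe set of a gene, light points its others, and open points did not pass. Every probe set of COL3A1, COL5A1, COL4A1 and COL7A1 above the filter is filled and below 0, while COL5A2, COL12A1 and COL4A4 each have an open point.

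Fibril-associated collagens were mostly dim. Of 10 genes, 3 were tested, of which COL12A1 rose and COL9A2 and COL16A1 did not pass. Among all tested genes 11.5% rose and 11.1% fell. COL12A1, whose product bridges type I fibrils to other matrix, read 11.88, 11.80 and 12.01 on the control arrays and 12.12, 12.18 and 12.12 on the RNF43 siRNA arrays. The groups were apart by a narrow margin. COL12A1 rose 1.19-fold (95% confidence interval 1.06 to 1.32, SE 0.07 on the log2 scale, limma adjusted p = 0.0319), on 2 of its 4 probe sets above the filter. Its call was lost in 6 of 18 alternatives, among them leaving out control replicate 1 or 2 or RNF43 siRNA replicate 1 or 2 (adjusted p 0.00658 to 0.318 over all). COL16A1 had a log2 difference of 0.11 (-0.11 to 0.32) and COL9A2, a chain of cartilage type IX collagen, one of -0.13 (-0.71 to 0.45).

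Transmembrane collagens gave little signal. COL13A1, found at sites of cell adhesion, was the 1 gene tested of 3 measured, with a log2 difference of -0.16 (95% confidence interval -0.80 to 0.49, limma adjusted p = 0.751). COL23A1 and COL25A1 were dim. COL17A1 was not analysed here.

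Of the collagens outside these classes, COL7A1 fell. It encodes the anchoring fibrils that fasten an epithelium to the tissue beneath, and read 12.03, 11.98 and 11.97 on the control arrays and 11.42, 11.64 and 11.43 on the RNF43 siRNA arrays. Each RNF43 siRNA value lay below each control value. COL7A1 fell 1.41-fold (95% confidence interval 1.26 to 1.59, SE 0.08 on the log2 scale, limma adjusted p = 0.00132), and its second probe set fell too, by 0.75 on the log2 scale. The type VI genes COL6A1 and COL6A2, which form beaded filaments around cells, had log2 differences of -0.01 (-0.26 to 0.24) and -0.05 (-1.02 to 0.93), the latter with a control SD of 0.83. COL18A1, whose fragment is endostatin, had one of 0.36 (-0.01 to 0.72, limma adjusted p = 0.155).

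The 22 dim genes are described without a test. Their mean log2 signals ran from 2.41 (COL19A1 and COL9A1 at the low end) to 5.71 (COL22A1), and their log2 differences from -1.97 (COL6A3) to 1.15 (COL15A1), with 14 below and 8 above 0. Only COL6A6 had a value at the floor of 0. The groups did not overlap for COL6A3, COL20A1, COL21A1 and COL26A1, which were lower, and for COL15A1, which was higher. That is 18.2% lower and 4.55% higher, where 6.31% and 4.33% of all 7922 genes under the filter did so. COL20A1 read 5.45, 6.02 and 6.32 on the control arrays and 3.97, 3.31 and 4.67 on the others. COL6A3, the third main type VI chain, read 5.35, 5.86 and 5.66 against 4.38, 2.90 and 3.66. With no filter, when 11.7% of 19775 genes were called, COL20A1 was the single dim collagen gene that passed. The remaining dim genes, whose groups overlapped, were COL14A1, COL9A3, COL28A1 and COL6A5 besides those named above.

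**Figure D4:**
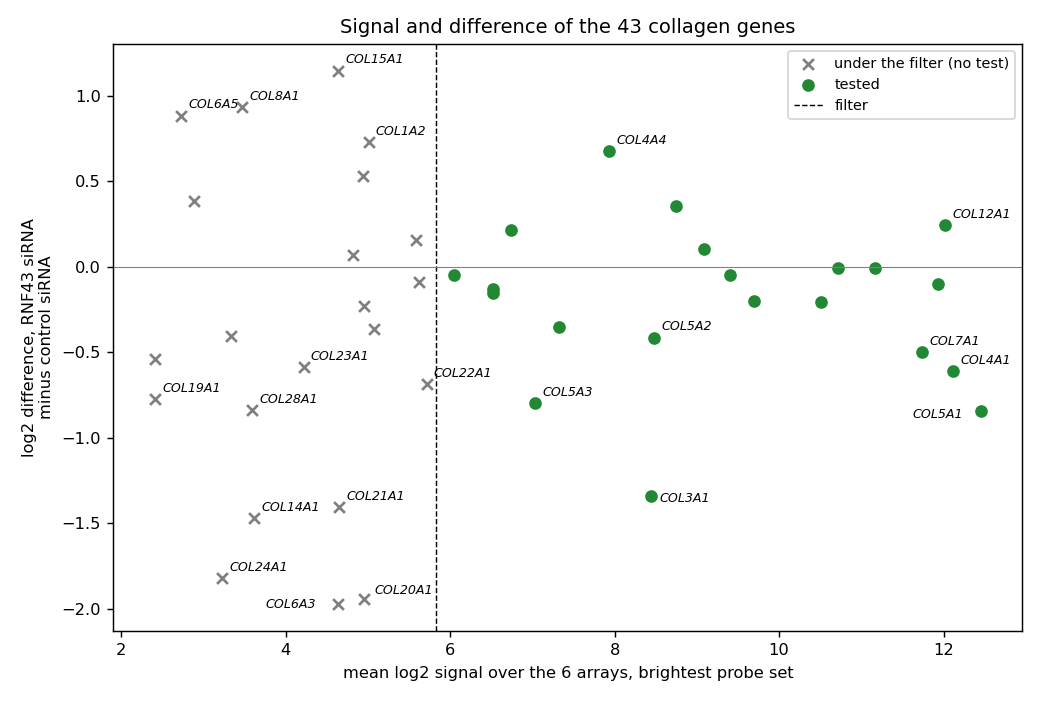
Mean log2 signal of the brightest probe set over 6 arrays (horizontal axis) against the log2 difference (vertical axis) for all 43 collagen genes; crosses are the 22 genes under the filter (dashed line at 5.83) and circles the 21 tested. Crosses scatter from -1.97 to 1.15, whereas circles above a signal of 10 stay between -0.84 and 0.25.

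Genes that modify, fold, export, trim, bind or degrade collagen were read from 5 lists of 70 genes, of which 68 were matched and 52 tested. Of the 52, 17 fell, 5 rose and 30 did not pass, beside 11.1% of all tested genes that fell and 11.5% that rose. The median log2 difference was -0.16. Without both arrays numbered 3, 14 fell and 4 rose. Leaving out control replicate 2 gave 11 falls and 3 rises, and leaving out RNF43 siRNA replicate 2 gave 10 and 3.

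Prolyl and lysyl hydroxylation and glycosylation genes act through their products on the chains in the endoplasmic reticulum. They gave 7 falls and 0 rises among 13 tested (median log2 difference -0.27), where 11.1% and 11.5% of all tested genes fell and rose. P4HA2, a catalytic subunit of prolyl 4-hydroxylase, read 11.85, 11.89 and 11.98 on the control arrays and 11.01, 10.97 and 10.99 on the others. It fell 1.89-fold, and P4HB, the subunit shared by all forms of that enzyme, fell 1.51-fold from 14.07 ± 0.01 to 13.48 ± 0.06 (log2 signal, SD, n = 3). Averaging the P4HA2 probe sets ended its call (adjusted p = 0.0685, alternatives 1.04e-07 to 0.0685). P3H1, a prolyl 3-hydroxylase, fell 1.43-fold, and PLOD1, a lysyl hydroxylase, also 1.43-fold.

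Chaperone and export genes gave 7 falls and 1 rise among 14 tested (median log2 difference -0.25), beside the same 11.1% and 11.5% of all tested genes. FKBP14, a prolyl isomerase that binds type III collagen, read 11.35, 11.32 and 11.28 on the control arrays and 9.62, 9.47 and 9.72 on the RNF43 siRNA arrays, the largest difference among the 52. It fell 3.28-fold (SE of the log2 difference 0.08, limma adjusted p = 1.99e-06). The related isomerases FKBP7 and FKBP10 fell 1.90-fold and 1.81-fold. KLHL12, an adaptor that enlarges the vesicles carrying procollagen, fell 1.37-fold. SERPINH1, the collagen chaperone HSP47, fell 1.20-fold, and TRAM2, a translocon protein used in type I collagen synthesis, rose 1.24-fold; both were named after their values were seen. SERPINH1 was not called without control replicate 2 (adjusted p = 0.0514, alternatives 0.00194 to 0.0514), and TRAM2 was lost in 6 of 17 alternatives, 4 of them without 1 array (control replicate 1 or 2, RNF43 siRNA replicate 2 or 3; adjusted p 8.50e-04 to 0.235 over all).

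Propeptide cleavage and cross-linking genes gave 4 rises and 2 falls among 12 tested (median log2 difference 0.18). Of all tested genes 11.5% rose and 11.1% fell. PXDN, a peroxidase that links type IV networks, read 10.41, 10.47 and 10.50 on the control arrays and 10.89, 10.89 and 10.99 on the others. It rose 1.38-fold, and no value of one group reached the other. The lysyl oxidase genes LOX, LOXL2 and LOXL3 rose 1.35-fold, 1.30-fold and 1.98-fold. The mean over the LOX probe sets differed by 0.06 (log2) in place of 0.43 (adjusted p = 0.795, alternatives 0.00228 to 0.795). The LOXL3 call was lost in 6 of 17 alternatives, 4 of them without 1 array (control replicate 1 or 2, RNF43 siRNA replicate 2 or 3; adjusted p 0.0113 to 0.0785 over all). LOXL2 was lost without RNF43 siRNA replicate 2 (adjusted p = 0.0607, range 1.39e-04 to 0.0607). TLL1, a procollagen C-proteinase, fell 1.72-fold and PCOLCE2, an enhancer of that cleavage, 1.24-fold; these too were named after their values were seen. TLL1 was lost without control replicate 1 or 2 or RNF43 siRNA replicate 1 or 2 (adjusted p 0.00688 to 0.156 over all alternatives), and PCOLCE2 without any 1 array but control replicate 2 (0.0152 to 0.141).

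Collagen receptor and uptake genes were called in 0 of 6 tested members by limma, where 22.6% of all tested genes were called. Of the 6, ITGA10 alone had an unadjusted p under 0.05. The list of collagenases and gelatinases had 1 of 7 called, beside the same 22.6%. That list also holds the peptidases PEPD and PREP, which are neither, and PEPD was the 1 called. ITGA10, an integrin chain that binds collagen, had a log2 difference of -0.83 (95% confidence interval -1.58 to -0.07, limma adjusted p = 0.111). Its mean log2 signal was 6.28 on the control arrays and 5.45 on the RNF43 siRNA arrays. It passed the filter of 5.83 through the control arrays only. ITGA1 had a log2 difference of 0.22 (-0.02 to 0.46), the shared beta chain ITGB1 one of -0.13 (-0.27 to 0.02) and DDR2, a collagen-binding kinase, one of -0.17. PEPD, which releases proline from collagen fragments, fell 1.24-fold, a call lost in 7 of 18 alternatives and without any 1 array but control replicate 3 (adjusted p 0.00234 to 0.126 over all). CTSK, MMP9 and MMP1, which cut collagen or gelatin, had log2 differences of -0.26, -0.21 and -0.13 and did not pass.

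**Figure D5:**
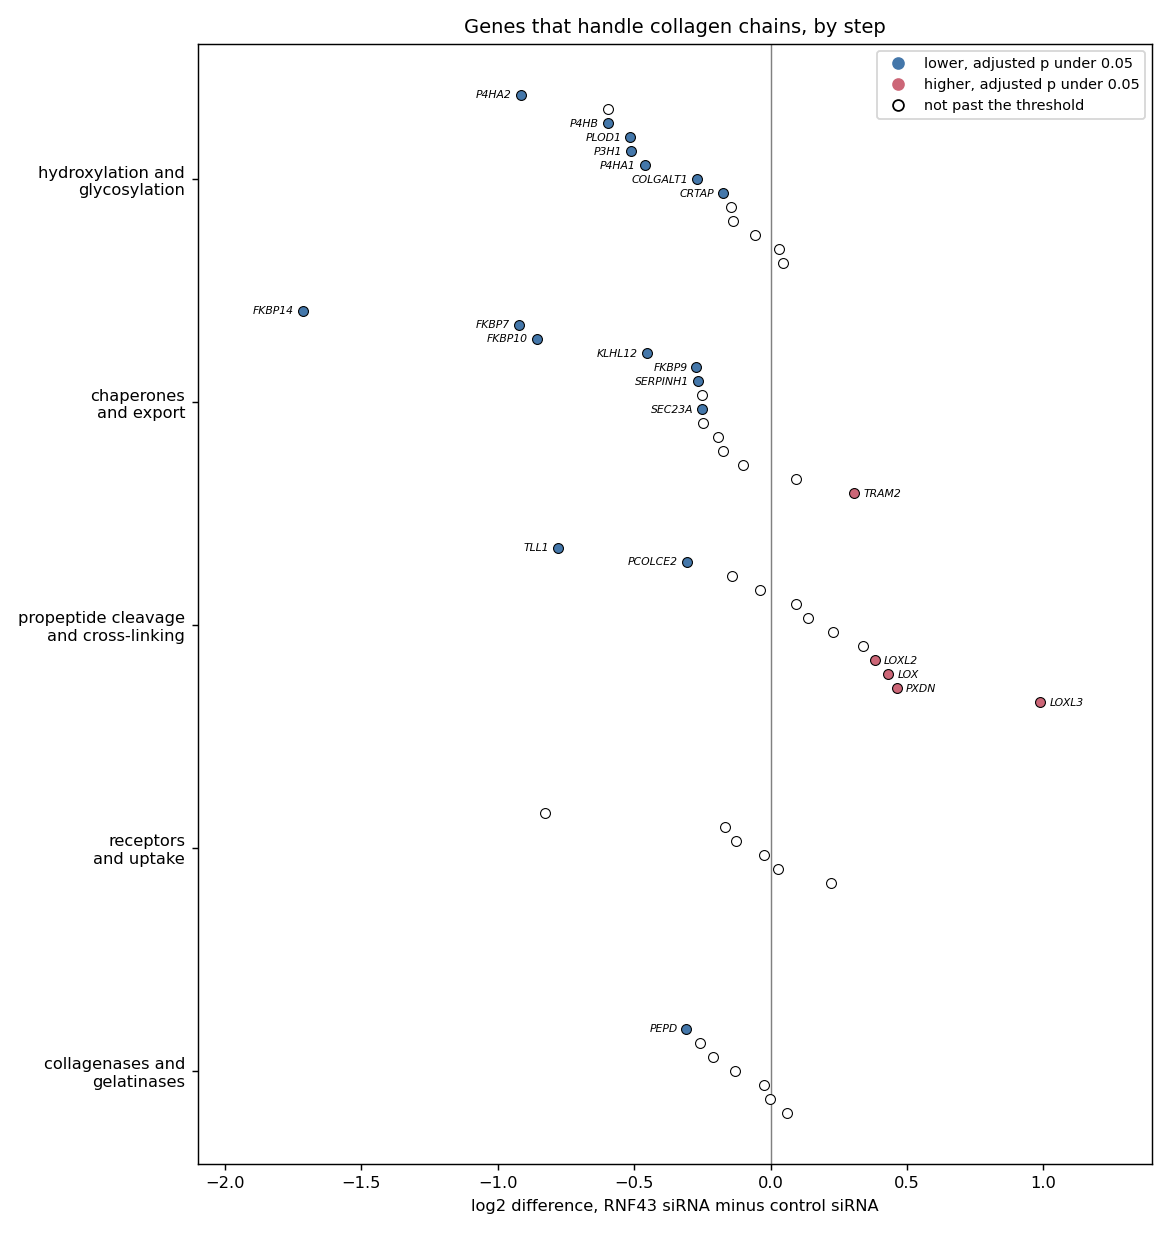
Log2 difference (horizontal axis) of each of the 52 tested genes that handle collagen, grouped by step; blue points fell, red points rose and open points did not pass. Of the 17 blue points, 14 stand in the first 2 rows, and 4 of the 5 red points stand in the propeptide cleavage and cross-linking step.

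Of the 12 tested markers of fibroblasts and stellate cells, 3 fell, 2 rose and 7 did not pass, beside 11.1% of all tested genes that fell and 11.5% that rose. Their median log2 difference was -0.14. The summed linear signal of all 18 was 31580 to 33020 on the control arrays and 28110 to 30520 on the others. Most of that sum came from VIM and LUM, the brightest of the list, so it says little about the other markers. Neither passed, at log2 differences of -0.15 and -0.18 (limma adjusted p = 0.206 and 0.0926). ACTA2, smooth muscle actin, fell 1.98-fold, FAP, a surface protease, 1.48-fold and DCN, a proteoglycan that binds collagen fibrils, 1.46-fold. FBLN1 and TAGLN rose 1.35-fold and 1.45-fold, the latter with limma adjusted p = 0.027. TAGLN was not followed through the alternatives, so how far its call depends on them was not tested. FBLN1 was lost in 4 of 18 alternatives, namely without RNF43 siRNA replicate 1 or 2, with no intensity trend (adjusted p = 0.0629) and with the mean over its probe sets, which differed by 0.28 (log2) in place of 0.44 (adjusted p = 0.273; 3.10e-04 to 0.273 over all). The DCN call was lost without probe sets ending in _x_at or _s_at (log2 difference -0.15, adjusted p = 0.633, alternatives 1.05e-04 to 0.633). Their part in the collagen differences was not tested, and fewer cells of a type cannot be told apart from less RNA per cell in such bulk samples. Of the other marker lists, 1 of 7 endothelial, 1 of 5 blood and macrophage and 3 of 5 cholangiocyte genes matched passed the filter. KRT7, a keratin of simple epithelia and 1 of those 3, rose 1.61-fold, a call lost without probe sets ending in _x_at or _s_at or with the mean over its probe sets (adjusted p = 0.168 and 0.118, alternatives 1.24e-06 to 0.168). The 2 other cholangiocyte genes tested did not pass. EPCAM had a log2 difference of -0.37 with groups that did not overlap (limma adjusted p = 0.0896). SOX9 had one of -0.40 with groups that did (limma adjusted p = 0.431), and the median of the 3 was -0.37. SOX9 passed the filter through the control arrays only, at a mean log2 signal of 6.14 there and 5.74 on the RNF43 siRNA arrays.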

How the data were processed

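The authors deposited log2 signals; per the submitters' processing notes they used MAS5, with no version or scaling target stated there. MAS5 sets perfect-match against mismatch probes, which makes dim values noisy. Raised as powers of 2, the values gave nearly equal trimmed means on all arrays (497.03 to 497.23), which sets the log base and shows that arrays were already scaled. Median log2 signals were 5.89 to 6.02. At most 0.00183% of values were equal between any pair of arrays. The number of arrays limits the precision.

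Of 54613 probe sets, 41091 named 1 gene, 1801 several and 11721 were unnamed here; symbols were updated to RefSeq (GRCh38.p14). A gene was read by its brightest single-gene probe set and tested if that mean exceeded the midpoint of all probe sets (upper 50%). The test was limma 3.58.1 under R 4.3.3 (lmFit, eBayes with intensity trend; two-sided, adjusted p under 0.05), tested on simulated data first. Lists are described by counts, with no set test. The members and lists were chosen with earlier results of these data known. Named genes are RNF43, all tested collagen genes and up to 4 genes of smallest p per described list. SERPINH1, TRAM2, TLL1, PCOLCE2, LUM, VIM, TAGLN and the dim markers were named after their values were seen. Alternatives covered normalization, added signal (16 or 64), filters, variance models, probe sets, a replicate block and leaving out arrays. Detection calls and scan dates were not used here.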

Additional observations from a re-analysis of the deposited data

How the results depend on the processing

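Quantile normalization, centring each array, adding 16 or 64 to the linear signal and array weights left the same 8 collagen genes called. COL4A1, COL5A1 and COL7A1 kept their calls in all 18 alternatives and COL3A1 in the 16 that tested it. Averaging the probe sets of a gene left 3 of 16 tested collagen genes called, and the count of genes changed went from 2684 to 1587. Asking for a change of at least 1.5-fold left 5 collagen genes. Without probe sets ending in _x_at or _s_at, 13 of 38 genes that handle collagen were called, from 22 of 52. Leaving out 1 array gave 5 to 8 collagen genes (5 without control replicate 1), 13 to 19 handling genes (13 without RNF43 siRNA replicate 2, 14 without control replicate 2) and 1741 to 2656 genes changed (1741 without RNF43 siRNA replicate 2).

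Genes near 0 changed sign. Leaving out 1 array gave log2 differences of -0.30 to 0.023 for COL9A2, -0.15 to 0.010 for COL27A1, -0.17 to 0.0074 for COL4A2, -0.082 to 0.065 for COL4A5, -0.12 to 0.12 for COL6A1, -0.52 to 0.21 for COL6A2, -0.37 to 0.086 for COL13A1 and -0.54 to 0.19 for DDR2. Centring gave 0.027 for COL4A5 and 0.026 for COL6A1, array weights 0.051 for COL6A1 and quantile normalization 0.044 for COL6A2. Without both arrays numbered 3, a setting added with the data in view, COL6A1 was at 0.088, MMP9 at 0.012 and RNF43 at 0.48 (adjusted p = 0.0537). The cause was not tested.

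Whether the replicate numbers pair the arrays was not settled. Deviations from the group means correlated at 0.16, 0.08 and 0.27 between arrays of the same number. Between arrays of different numbers they correlated at -0.21 to 0.086. Control replicate 2 correlated slightly better with RNF43 siRNA replicate 1 (0.086) than with its own number (0.077). With a replicate block the counts were 3908 genes changed, 9 collagen genes changed (COL1A1 added, adjusted p = 0.0281) and 27 collagen-handling genes changed. With 3 arrays a group no exact permutation p can go below 0.1, and dim signals were not tested.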
